A study of Homo sapiens with 5 samples.

Results

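The RNA of 8 genes that encode relatives or partners of the protein SET, most of them histone chaperones, was followed across 5 RNA-seq libraries. All 5 came from MDA-MB-231, a human cell line that lacks the hormone receptors and HER2 of other breast cancers. The genes were NAP1L1, NAP1L4, NASP, SSRP1, ANP32A, ANP32E, APEX1 and NME1. They were chosen by name, 8 of the 10595 genes in the table, but with earlier results of these data known. Shares over all genes given beside them are therefore not a blind comparison. For each gene the transcript row of highest average level was read. The question was whether any of them stands higher when SET is targeted, as a compensation for its loss would have it.

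There was 1 library for each group. The siSET cells received an siRNA against SET for 48 hours and the siCIP2A cells an siRNA against CIP2A, with siNT, a control siRNA for 48 hours, as their reference. The protocol gives 48 hours for either target, although the label of the siCIP2A sample itself carries no time. The OP449 cells received 1 µM of the SET antagonist OP449 for 12 hours, with PBS for 12 hours as their control. All were grown in IMDM with fetal bovine serum.

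Histone chaperones are proteins that hold histones outside the nucleosome and hand them over during replication, transcription and repair. SET is a chaperone of the NAP1 family and also an inhibitor of the phosphatase PP2A. It is found with ANP32A, APEX1 and NME1 in the SET complex, an assembly on the endoplasmic reticulum that granzyme A attacks in killed cells. ANP32A and ANP32E belong to a family of small acidic proteins that bind histones as well.

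APEX1 and NME1 carry in their promoters the hexamer bound by MYC, the transcription factor in the series title, and their sequences are shown for that reason. They are from RefSeq on GRCh38.p14, 250 bases before to 50 after the gene start, with CACGTG in capitals. The APEX1 window is chr14:20454976-20455275 and the NME1 window chr17:51153309-51153608, both on the plus strand.
APEX1: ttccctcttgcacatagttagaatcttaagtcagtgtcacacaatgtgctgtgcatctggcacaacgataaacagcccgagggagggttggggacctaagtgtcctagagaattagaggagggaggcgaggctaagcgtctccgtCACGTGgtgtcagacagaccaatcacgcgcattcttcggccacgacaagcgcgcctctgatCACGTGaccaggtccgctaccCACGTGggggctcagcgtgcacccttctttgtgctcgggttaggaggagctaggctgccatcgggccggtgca
NME1: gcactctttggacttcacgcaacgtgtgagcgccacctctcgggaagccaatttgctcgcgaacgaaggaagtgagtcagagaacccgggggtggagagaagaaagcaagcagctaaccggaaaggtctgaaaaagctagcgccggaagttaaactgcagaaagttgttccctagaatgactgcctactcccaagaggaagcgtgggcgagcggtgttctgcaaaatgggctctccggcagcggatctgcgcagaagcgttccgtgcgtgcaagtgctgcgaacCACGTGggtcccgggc

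CACGTG reads the same on both strands. In APEX1 the hexamer starts at positions -105, -44 and -23 from the gene start, and in NME1 at position 35. At least 1 copy stood in 7.26% of 35116 RefSeq promoter windows of that length, and 3 or more copies in 0.094%. Windows were listed for 7 of the 8 genes, all but ANP32E, and were 10 in all. The other 8 windows held no copy. CCAAT, searched on both strands, stood in 6 of the 10 windows, against 34.6% of all windows. The ANP32A window held 3 copies, and 3.26% of all windows held 3 or more. Of these 10 windows 4 belong to NAP1L4, and 2 of those overlap and share 1 copy of CCAAT, which is counted in both. By gene, 5 of the 7 held CCAAT. TTTNNCGC, a form of the E2F site searched on both strands, stood once in the NAP1L1 window, against 6.89% of all windows. These matches describe letters and not bound sites.

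The deposited values are scaled counts, reads per transcript that the authors had put on a common scale. The gene table held 3641203 reads in siSET, 5601987 in siCIP2A, 5250122 in siNT, 4762562 in OP449 and 5513574 in PBS, so siSET was the shallowest. With 1 library per group there is no test between conditions, and no difference below has a replicate check. Brackets hold 95% exact counting intervals of the log2 ratio, which cover counting error only. In bulk RNA, fewer cells of a kind and less RNA per cell cannot be told apart. NAP1L1 and ANP32A have processed pseudogenes, and how reads shared with them were counted is not stated. SET, CIP2A and MYC were not analysed here, so the silencing itself was not checked. Of the markers listed for the line, the mesenchymal VIM stood at 15670 to 20866 scaled counts and AXL at 15393 to 18128. Also listed as high, CD44 stood at 13820 to 20560, the keratin KRT18 at 2032 to 2965 and ZEB1 at 761 to 908. Among those listed as low, the epithelial cadherin CDH1 stood at 12.9 to 56.7 and EPCAM at 139 to 282. GATA3, listed as low too, stood at 133 to 250 and ERBB3 at 95.2 to 160. EPCAM, GATA3 and ERBB3 were thus not absent, whereas PGR and the basal keratins KRT5 and KRT14 stood at 0.

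In siSET, 1 of the 8 genes stood far below siNT and none stood far above it. ANP32E, which encodes a chaperone that removes the variant histone H2A.Z from chromatin and can inhibit PP2A, stood at 1192 scaled counts in siSET, against 2360 in siNT. The other 7 lay between 1.19-fold below and 1.10-fold above siNT. The median log2 fold of the 8 was -0.06, beside 0.01 over the 6083 genes tested, those with a mean of at least 50 scaled counts in the 2 libraries.

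**Figure D1:**
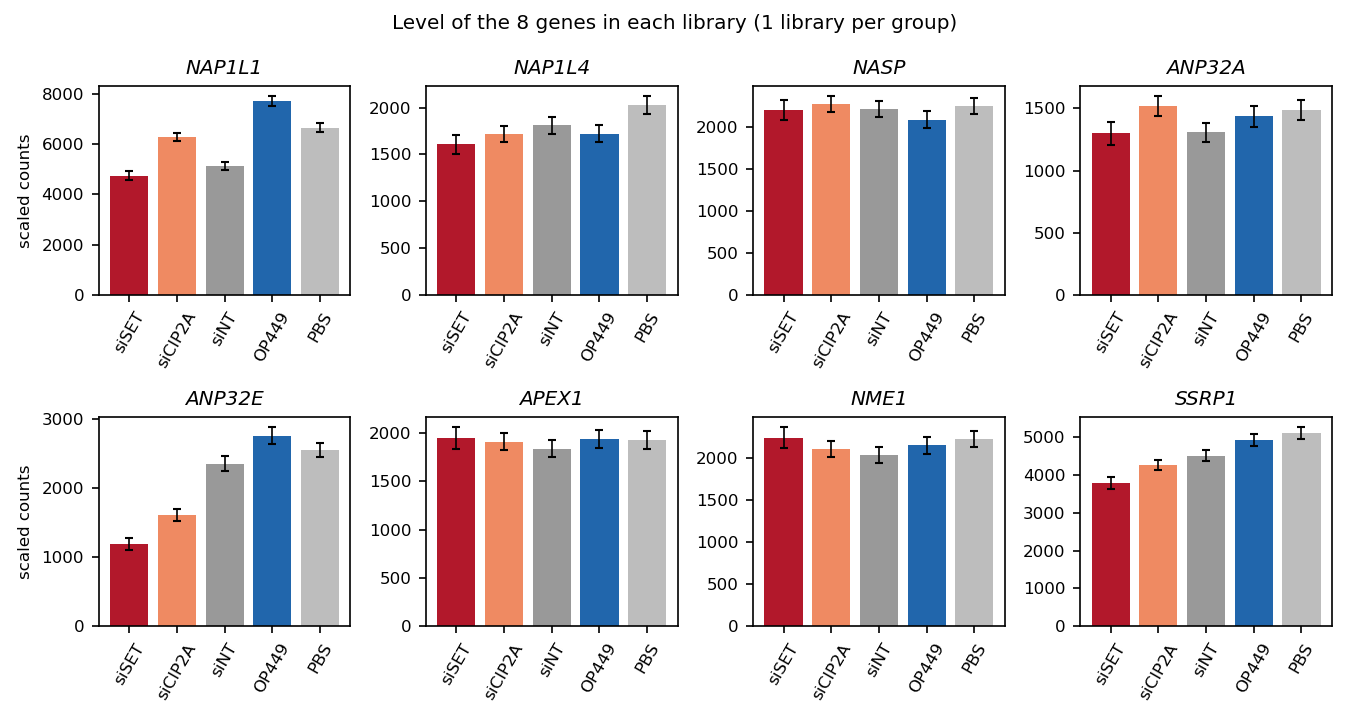
Scaled counts (vertical axes, each from 0) of the 8 genes in the siSET, siCIP2A, siNT, OP449 and PBS libraries, 1 bar per library. Error bars are approximate 95% counting errors from the square root of the read number. ANP32E is lowest in siSET at 1192 and next lowest in siCIP2A at 1615, while APEX1, NME1 and NASP are nearly level.

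ANP32E lies on chromosome 1, where its transcript spans 150190718 to 150208504 on the minus strand of hg19. It stood at 1192 scaled counts in siSET, 1615 in siCIP2A, 2360 in siNT, 2766 in OP449 and 2553 in PBS, from 697, 1463, 1991, 2147 and 2252 reads. Both targeted siRNA libraries were below the 3 others, and siSET was the lower of them.

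The log2 fold of ANP32E was -0.98 [-1.11 to -0.86] in siSET against siNT, a 1.98-fold lower level. It alone of the 8 was past 1.5-fold there, against 7.15% of genes tested in either direction and 4.31% in the lower one. Only 0.871% of genes had a lower fold in that comparison. Against PBS the siSET level was 2.14-fold lower, at -1.10 [-1.22 to -0.98], and 0.148% of genes stood lower. There too it alone was past 1.5-fold, against 5.72% of genes tested.

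In siCIP2A the log2 fold of ANP32E against siNT was -0.55 [-0.64 to -0.45], a 1.46-fold lower level. None of the 8 was past 1.5-fold there, against 6.08% of genes tested. Against PBS the siCIP2A level was 1.58-fold lower, at -0.66 [-0.76 to -0.56], the single fold of the 8 past 1.5 there, against 5.79% of genes tested. The siSET and siCIP2A folds share their control libraries. Set directly against each other, siSET was 1.35-fold below siCIP2A, at -0.44 [-0.57 to -0.31]. OP449 stood slightly above PBS, at 0.12 [0.03 to 0.20], and siNT slightly below PBS, at -0.11 [-0.20 to -0.03]. Both of these differences were much smaller than those of the targeted siRNA libraries.

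The 3 transcript rows of ANP32E share reads, and their log2 folds in siSET against siNT ran from -0.98 to -0.97. No other gene in the table overlaps the transcript. With each gene's log2 profile centred on its own mean, the profiles nearest to ANP32E by Euclidean distance over the 5 libraries, among 6092 genes, were those of NEU3 (distance 0.22), SSX2IP (0.23) and TP73 (0.27). SSX2IP stood at 411 scaled counts in siSET, 544 in siCIP2A, 710 in siNT, 872 in OP449 and 725 in PBS. NEU3 had 45 reads in siSET and TP73 had 21, so their profiles are less certain.

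**Figure D2:**
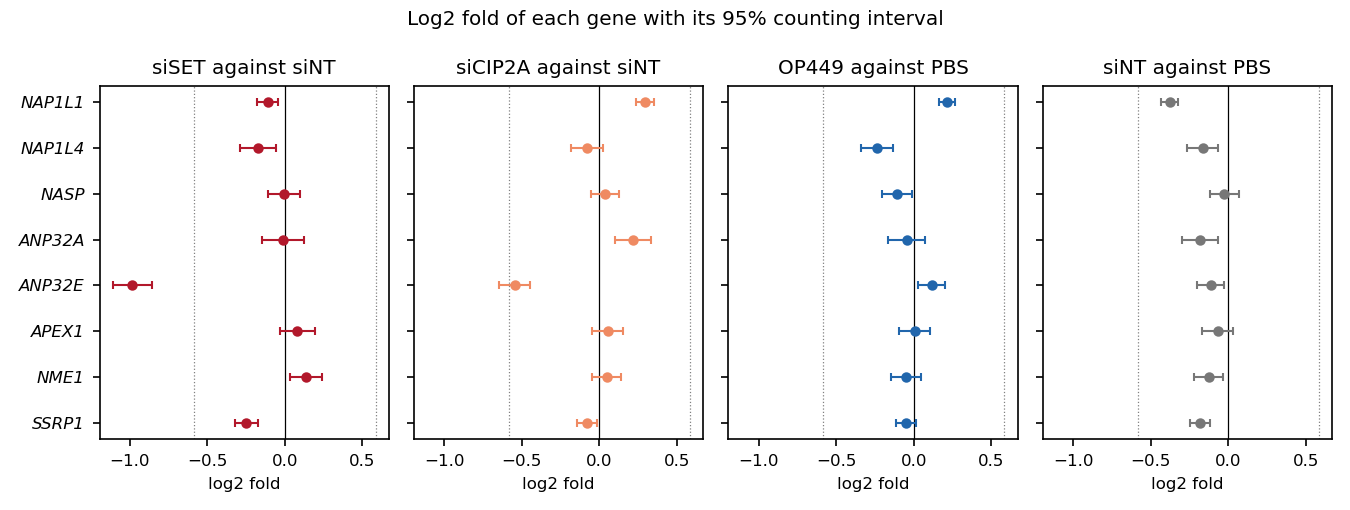
Log2 folds (horizontal axes) of the 8 genes, with siNT as the denominator for siSET and siCIP2A and PBS for OP449 and siNT, with 95% counting intervals as bars and dotted lines at a fold of 1.5. ANP32E at -0.98 in siSET is the single point past the dotted lines.

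ANP32A, also called pp32, is the close relative of ANP32E, a member of the SET complex and itself a PP2A inhibitor. Its transcript spans 69070877 to 69113261 on the minus strand of chromosome 15. It stood at 1300 scaled counts in siSET, 1520 in siCIP2A, 1310 in siNT, 1438 in OP449 and 1485 in PBS. The siSET and siNT levels were almost equal, with a log2 fold of -0.01 [-0.15 to 0.12].

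In siCIP2A, ANP32A stood above siNT at 0.22 [0.10 to 0.33], the opposite side from ANP32E. Against PBS the siCIP2A library was at 0.03 [-0.08 to 0.14], and siNT was itself below PBS at -0.18 [-0.30 to -0.06]. Per kilobase of transcript, ANP32E stood at 0.648 times the level of ANP32A in siSET and 0.751 times in siCIP2A, against 1.27 times in siNT. The same ratio was 1.36 in OP449, against 1.22 in PBS. The order of the pair was thus turned round in both targeted siRNA libraries.

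NAP1L1 and NAP1L4 encode chaperones of H2A and H2B and are the members closest to SET by family. NAP1L1, on chromosome 12 from 76438672 to 76478738 on the minus strand, stood at 4754 scaled counts in siSET, 6297 in siCIP2A, 5132 in siNT, 7739 in OP449 and 6671 in PBS. It was lowest in siSET and highest in OP449, a 1.63-fold span. Its log2 fold in siSET against siNT was -0.11 [-0.18 to -0.04], so this relative was not higher in siSET.

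In siCIP2A, NAP1L1 stood above siNT at 0.30 [0.24 to 0.35], and in OP449 above PBS at 0.21 [0.16 to 0.27]. Between the controls it stood lower in siNT than in PBS, at -0.38 [-0.44 to -0.32], a difference wider than those 2. Against PBS the siCIP2A library was at -0.08 [-0.14 to -0.03], so the sign in siCIP2A depends on the control chosen. The siSET library was below both controls, at -0.49 [-0.55 to -0.42] against PBS, and below siCIP2A at -0.41 [-0.47 to -0.34].

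NAP1L4, on chromosome 11 from 2965661 to 3013607 on the minus strand, stood at 1608 scaled counts in siSET, 1717 in siCIP2A, 1812 in siNT, 1722 in OP449 and 2032 in PBS. PBS was the highest library and siSET the lowest. The log2 fold was -0.17 [-0.29 to -0.05] in siSET against siNT and -0.24 [-0.34 to -0.14] in OP449 against PBS. In siCIP2A against siNT it was -0.08 [-0.18 to 0.03], within counting error. NAP1L1 and NAP1L4 thus stood on opposite sides of PBS in OP449.

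SSRP1, on chromosome 11 from 57093460 to 57103351 on the minus strand, encodes a subunit of FACT, the chaperone that opens nucleosomes ahead of polymerases. It stood at 3796 scaled counts in siSET, 4262 in siCIP2A, 4508 in siNT, 4935 in OP449 and 5112 in PBS. After ANP32E it had the lowest log2 fold of the 8 in siSET against siNT, at -0.25 [-0.32 to -0.17]. Against PBS it was at -0.43 [-0.50 to -0.36]. In siCIP2A it was at -0.08 [-0.15 to -0.02] against siNT but at -0.26 [-0.32 to -0.20] against PBS. The siNT library was itself at -0.18 [-0.24 to -0.12] against PBS, so the size of both siRNA differences depends on the control. Set against siCIP2A, siSET was at -0.17 [-0.24 to -0.09]. OP449 was at -0.05 [-0.11 to 0.01] against PBS, within counting error.

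The other FACT subunit, SUPT16H, stood lower still in siSET, at 1918 scaled counts in siSET, 3070 in siCIP2A, 2819 in siNT, 3085 in OP449 and 3151 in PBS. Its log2 fold was -0.56 [-0.66 to -0.45] in siSET against siNT, and -0.72 [-0.82 to -0.62] against PBS. Per kilobase, SSRP1 stood at 3.29 times SUPT16H in siSET and 2.31 times in siCIP2A, against 2.66 times in siNT, and at 2.66 times in OP449, against 2.70 times in PBS. Both subunits were lowest in siSET.

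NASP, APEX1 and NME1 were almost level. NASP, on chromosome 1 from 46049717 to 46084567 on the plus strand, encodes a chaperone of H3, H4 and linker histones. It stood at 2212 scaled counts in siSET, 2279 in siCIP2A, 2221 in siNT, 2093 in OP449 and 2258 in PBS. Its log2 fold was -0.01 [-0.11 to 0.10] in siSET, 0.04 [-0.05 to 0.13] in siCIP2A and -0.11 [-0.20 to -0.01] in OP449.

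APEX1, on chromosome 14 from 20923290 to 20925925 on the plus strand, encodes the endonuclease that cuts DNA at sites without a base. It stood at 1943 scaled counts in siSET, 1910 in siCIP2A, 1838 in siNT, 1936 in OP449 and 1928 in PBS. All 5 lay within 1.06-fold, the narrowest span of the 8, and 99.1% of the 1621 genes with a mean of at least 1000 spanned more. Its log2 fold was 0.08 [-0.03 to 0.19] in siSET, 0.06 [-0.04 to 0.16] in siCIP2A and 0.01 [-0.10 to 0.11] in OP449. Whether the 3 copies of CACGTG in the APEX1 window bear on its even level was not tested.

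NME1, on chromosome 17 from 49230920 to 49239450 on the plus strand, encodes a nucleoside diphosphate kinase known as a metastasis suppressor. It stood at 2238 scaled counts in siSET, 2102 in siCIP2A, 2035 in siNT, 2148 in OP449 and 2222 in PBS. In siSET against siNT it had a log2 fold of 0.14 [0.03 to 0.24], the single interval of the 8 above equality, against 19.8% of genes tested. Against PBS the siSET library was at 0.01 [-0.09 to 0.11], so this small difference appeared beside siNT and not beside PBS. The joined NME1-NME2 transcript covers the whole of NME1, and reads of the 2 cannot be told apart.

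Ranked by span over the 5 libraries on the log2 scale, the 8 ran from ANP32E at 1.21 through NAP1L1 at 0.70, SSRP1 at 0.43, NAP1L4 at 0.34, ANP32A at 0.23, NME1 at 0.14 and NASP at 0.12 to APEX1 at 0.08. The median span of genes with a mean of at least 1000 was 0.33. ANP32E spanned more than 98.6% of them, and NME1 and NASP less than 94.4% and 96.0%. Of the 6 genes with a matched transcript length, levels per kilobase in siSET were highest for NME1 at 2269 and lowest for ANP32E at 346. In siNT NME1 was again highest, at 2064, and ANP32A lowest, at 537.

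**Figure D3:**
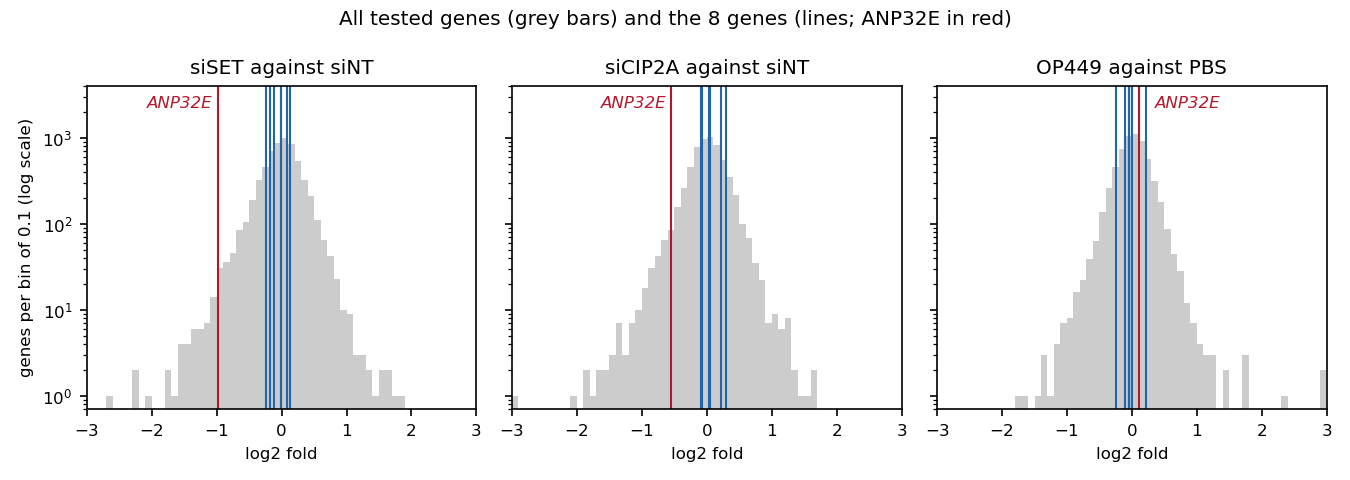
Number of genes tested (vertical axes, log scale) by log2 fold in bins of 0.1 (horizontal axes) for the siSET and siCIP2A libraries over siNT and the OP449 library over PBS, with folds beyond 3 placed in the end bins. Lines mark the 8 genes, with ANP32E in red at -0.98, -0.55 and 0.12, and the other 7 stay in the central mass.

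Counting intervals of the 8 lay on both sides of equality. In siSET against siNT, 4 intervals lay below equality, against 19.8% of genes tested, and 1 above, against 19.8%. In siCIP2A against siNT, 2 lay below, against 20.2%, and 2 above, against 21.3%. In OP449 against PBS, 2 lay below, against 16.9%, and 2 above, against 19.3%, and none of the 8 was past 1.5-fold, against 3.76%.

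The controls themselves also differed. All 8 stood lower in siNT than in PBS, 6 with an interval below equality, against 17.6% of the 6075 genes tested, and 0 with one above, against 17.7%. The median log2 fold of the 8 was -0.15, beside 0.00 over all genes tested, and none was past 1.5-fold, against 3.03%. These controls differ in time as well as in treatment. In siSET against PBS the median of the 8 was -0.26, beside 0.01 over all genes tested. In siSET against siCIP2A, 4 of the 8 had an interval below equality and 0 above, against 21.4% and 20.1%, and none was past 1.5-fold, against 8.33%.

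The wider set of chaperone genes was described from 3 lists of names, also chosen with earlier results of these data known. Many listed genes were absent from the table, which covers part of the genome, and could not be read. With members of the 8 counted, it held 4 of 10 names listed as SET partners. It held 6 of 17 listed for the NAP1, nucleophosmin and ANP32 families, and 18 of 29 listed as other chaperones. Besides the 8, 18 histone chaperone or SET partner genes were tested. In siSET against siNT, 14 stood lower and 4 higher, 9 with an interval below equality and 1 above, and the median log2 fold was -0.12. Over all genes tested there, 52.1% stood higher, 19.8% had an interval below equality and 19.8% above, and the median was 0.01. PTMS, UBN1 and SPTY2D1 were past 1.5-fold, all lower, against 4.31% of all genes tested. In siCIP2A the median was -0.01, with 4 intervals below and 5 above, against 20.2% and 21.3% of all genes tested. In OP449 it was 0.08, with 14 of the 18 higher, 5 with an interval above equality and 1 below. All genes tested there had a median of 0.02, with 53.7% higher, 19.3% with an interval above equality and 16.9% below. None of the 18 was past 1.5-fold in siCIP2A against siNT or in OP449 against PBS. In siCIP2A against PBS, 1 of the 18 was, SART3, lower at -0.74 [-0.88 to -0.60], against 5.79% of all genes tested. SART3 was at -0.49 [-0.63 to -0.34] in siCIP2A against siNT.

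PTMS, which encodes the acidic histone-binding protein parathymosin, stood at 445 scaled counts in siSET, 714 in siCIP2A, 738 in siNT, 742 in OP449 and 855 in PBS. Its log2 fold was -0.73 [-0.95 to -0.52] in siSET against siNT and -0.94 [-1.15 to -0.74] against PBS. UBN1, a subunit of the HIRA complex that deposits histone H3.3, stood at 650 in siSET, 1271 in siCIP2A, 1071 in siNT, 1185 in OP449 and 1117 in PBS. Its log2 fold in siSET was -0.72 [-0.90 to -0.55], whereas siCIP2A was above siNT at 0.25 [0.12 to 0.37]. For both genes siSET was the lowest library.

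SPTY2D1, which encodes a chaperone of H3 and H4, stood at 470 scaled counts in siSET, 721 in siCIP2A, 768 in siNT, 719 in OP449 and 652 in PBS. Its log2 fold was -0.71 [-0.92 to -0.50] in siSET against siNT but -0.47 [-0.68 to -0.26] against PBS, which is under 1.5-fold. The highest of the 18 in siSET was ASF1B, a chaperone of H3 and H4 in dividing cells, at 0.29 [0.15 to 0.44] against siNT. ASF1B stood at 1218 in siSET, 1126 in siCIP2A, 994 in siNT, 1386 in OP449 and 1350 in PBS. Against PBS it was lower in siSET, at -0.15 [-0.28 to -0.01], and siNT was itself below PBS, at -0.44 [-0.57 to -0.31]. NPM3, of the nucleophosmin family, was tested from the NAP1, nucleophosmin and ANP32 list beside the members, at 0.17 [-0.09 to 0.42] in siSET and 0.31 [0.10 to 0.53] in siCIP2A.

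**Figure D4:**
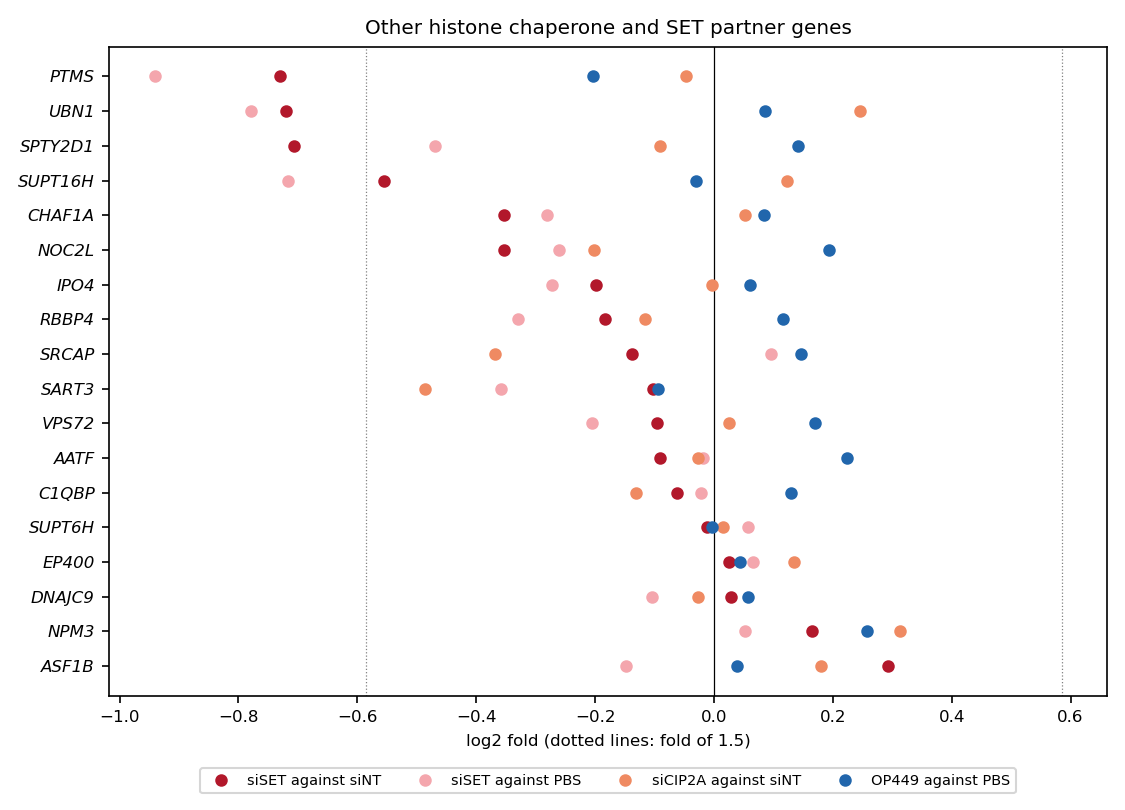
Log2 folds (horizontal axis) of the 18 other chaperone and SET partner genes, ordered by siSET against siNT, with the 3 other comparisons named in the legend beside it and dotted lines at a fold of 1.5. PTMS and UBN1 are past the lower line in siSET against either control, SPTY2D1 against siNT alone and SUPT16H against PBS alone.

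DNA replication genes were set beside these, since several chaperones serve S phase. Of 29 tested, 16 stood higher and 13 lower in siSET against siNT, with 6 intervals above and 2 below equality and a median of 0.05. The 6 above are near the share of all genes tested, 19.8% above and 19.8% below, and the 2 below are under it. None was past 1.5-fold in siSET, siCIP2A or OP449 against its control. In siCIP2A against PBS, 2 were past it, both lower, against 5.79% of all genes tested. In siCIP2A against siNT, 9 of the 29 had an interval below equality and 4 above, against 20.2% and 21.3% of all genes tested. In siNT against PBS, 26 of the 29 stood lower, with a median of -0.24, whereas 49.0% of all genes tested stood higher there and the median was 0.00. The balance in siSET depended on the control. Against PBS, 7 of the 29 stood higher in siSET and 22 lower, with a median of -0.20. Over all genes tested there, 51.3% stood higher and the median was 0.01. The extremes in siSET against siNT were DTL, a ubiquitin ligase factor of S phase, at 0.39 [0.22 to 0.55] and POLE, a DNA polymerase subunit, at -0.38 [-0.53 to -0.24]. The part of siNT's own difference from PBS in the folds against siNT was not tested.

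The 4 relatives of NME1 in the table had a median log2 fold of 0.17 in siSET against siNT, with 3 intervals above equality and 1 below, that of NME7 at -0.21, against 19.8% of all genes tested on either side. NME2, the neighbour and close relative of NME1, stood at 5495 scaled counts in siSET, 5407 in siCIP2A, 5140 in siNT, 5126 in OP449 and 5418 in PBS, at 0.10 [0.03 to 0.16] in siSET. Its overlap with the joined NME1-NME2 transcript was not checked, so NME2 may not be independent of NME1. NME3 was the highest of the 4, at 0.42 [0.05 to 0.78] from 124 reads in siSET and 134 in siNT. None of the 4 was past 1.5-fold against siNT. In siSET against PBS, 1 of the 4 had an interval above equality and 1 below. NME3 was past 1.5-fold there, at 0.75 [0.37 to 1.14], against 5.72% of all genes tested. NME7 was at -0.21 [-0.39 to -0.04], while NME2 at 0.02 [-0.04 to 0.08] and NME4 at 0.16 [-0.05 to 0.36] were within counting error. The higher levels of NME2 and NME4 thus appeared beside siNT and not beside PBS.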

How the data were processed

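The authors deposited one signal value for every RefSeq transcript, here named scaled counts, already brought to a common level. The submitters' processing notes list Bowtie 1.0.0, CASAVA and hg19 with no roles. How reads were counted and scaled, and whether strand was used, is not stated there. Every column (100% of values) ran in whole steps, within 0.001 reads, so read numbers were recovered. The table used here holds 16383 transcript rows from part of the genome, and 15 symbols turned into dates were restored through their accessions.

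Coordinates are whole transcripts on hg19, counted from 1. Transcript lengths came from GENCODE transcripts matched by accession, for 6 of the 8 genes. Folds are differences of log2(value + 1), a scale that shrinks those of low genes. The floor was a mean of 50 over the 2 libraries compared, and a fold of 1.5 counted as a call. Intervals are exact Clopper-Pearson intervals from recovered reads. Reads carry no molecular identifiers. For a gene at 0 the limit is 3 reads, or 3.31 to 5.13 scaled counts by library. A binomial test (exact), added after seeing the data, called 1802 of 6083 genes in siSET against siNT, 2021 of 6101 in siCIP2A against siNT and 1616 of 6095 in OP449 against PBS at an adjusted threshold of 0.05. It compares libraries, not conditions.

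The 8 genes and the 7 gene lists were chosen with earlier results of these data known. Named genes were the 8, from each list the genes with the highest and lowest fold in siSET against siNT and genes past 1.5-fold in a comparison (up to 4 a list), and the 3 genes nearest in profile to the member with the widest span. NME2 and SART3 were added after their values were seen. The interval calculation was tested on simulated data. Python 3.11.15, NumPy 2.4.6, pandas 2.3.3 and SciPy 1.17.1 were used.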

Additional observations from a re-analysis of the deposited data

How the results depend on the processing

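The alternatives were 3 other scalings, PBS as control of the siRNA libraries, other pseudocounts, all transcript rows, other floors and other folds. Of 256 log2 folds of the 8 genes under an alternative, 245 stayed inside their counting interval and 11 did not. All 11 were with PBS as the control, where 5 of the 8 folds in siSET and 6 of the 8 in siCIP2A fell outside. The other scalings shifted log2 folds by at most 0.027 in any comparison, too little for the number inside to say much. The fold of ANP32E in siSET stayed between -1.10 and -0.97. With PBS as the control the median of the 8 was -0.26 in siSET and -0.081 in siCIP2A, and 1 gene, ANP32E, passed 1.5-fold in siCIP2A. At a fold of 2, 0 of the 8 passed in siSET against siNT. At a looser fold (25% higher or 20% lower), 1 passed in siCIP2A against siNT, 1 in siNT against PBS and 2 in siSET against siCIP2A. The exact binomial test of reads called 5 of the 8 in siSET against siNT (29.6% of all genes tested), 4 in siCIP2A against siNT (33.1%), 3 in OP449 against PBS (26.5%), 6 in siNT against PBS (26.0%) and 4 in siSET against siCIP2A (33.6%). The cause of these differences was not tested.

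The percent of all genes past the fold moved most with the filter and the fold. Without a filter it was 20.1% in siSET against siNT, 18.6% in siCIP2A against siNT, 16.3% in OP449 against PBS, 16.2% in siNT against PBS and 20.8% in siSET against siCIP2A. At the looser fold it was 24.8%, 22.0%, 18.1%, 16.7% and 26.7% in the same order, and at a fold of 2 it was 1.18%, 1.11%, 0.591%, 0.395% and 1.67%. With a floor of 200 it was 2.03% in OP449 against PBS and 1.66% in siNT against PBS, and with a floor of 20 it was 4.66% in siNT against PBS. No paired analysis was possible because each group has 1 library.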

Other observations

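Histone genes and base excision repair genes were described from the same kind of list. H2AFX, which encodes the variant histone marked at DNA breaks, stood at 1750 scaled counts in siSET, 1790 in siCIP2A, 2355 in siNT, 2963 in OP449 and 3213 in PBS. Its log2 fold against siNT was -0.43 [-0.54 to -0.32] in siSET and -0.40 [-0.49 to -0.30] in siCIP2A, and siNT was itself at -0.45 [-0.53 to -0.36] against PBS. Against PBS it was past 1.5-fold in both, at -0.88 [-0.98 to -0.77] in siSET and -0.84 [-0.93 to -0.76] in siCIP2A. H3F3B, which encodes histone H3.3, stood at 0.12 [0.05 to 0.19] in siSET against siNT. It has near-identical copies elsewhere in the genome, so its reads are uncertain. Of the 4 histone genes tested, the median in siSET was -0.06.

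Besides APEX1, 13 base excision repair genes were tested. In siSET against siNT, 6 stood higher and 7 lower, with 2 intervals above and 2 below equality and a median of -0.01, near the 19.8% of all genes tested on either side and their median of 0.01. The extremes there were MUTYH, a glycosylase for mispaired adenine, at 0.36 [-0.19 to 0.90], and NTHL1, a glycosylase for oxidised pyrimidines, at -0.54 [-0.89 to -0.19]. TDG, a glycosylase for mismatched thymine, was the single gene of this list past 1.5-fold in siCIP2A against siNT, against 6.08% of all genes tested. It was lower at -0.62 [-0.93 to -0.33] against siNT and at -0.27 [-0.59 to 0.04] against PBS. In siCIP2A against PBS the single gene past 1.5-fold was FEN1, lower at -0.78, against 5.79% of all genes tested. FEN1 was at -0.56 in siCIP2A against siNT.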
